A study of Homo sapiens with 2 samples.

Results

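Glycolytic enzymes and known targets of the hypoxia-inducible factors (HIFs) were followed in ACHN cells with and without an shRNA against KIAA1429. The 44 members were chosen by gene name from enzymes, regulators and HIF target genes of the textbook pathway, and 40 of them were found among the 12014 genes listed in the deposited files. CA9, CA12, PDK3 and ALDOC were not analysed here. Both groups consisted of ACHN, a long-cultured human renal carcinoma line, carrying a lentiviral shRNA after selection with puromycin. One group, shKIAA1429, is labelled as a KIAA1429 knockout, whereas the study's methods describe an shRNA knockdown, and the sequenced hairpin is not named in the sources used here. The other group, shNC, carried the negative control hairpin. With 1 library per group, the differences could not be checked against replicates, and none was tested.

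Glycolysis splits glucose into pyruvate in the cytosol, and lactate dehydrogenase turns pyruvate into lactate. HIFs are transcription factors whose alpha subunits are marked by prolyl hydroxylases in the presence of oxygen and then degraded through VHL. When the alpha subunits persist they switch on genes for glucose use, vessel growth, collagen modification, mitophagy and acid handling. Loss of VHL makes this programme a hallmark of clear cell renal cell carcinoma. KIAA1429 (VIRMA) belongs to the complex that methylates adenosines of mRNA.

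Levels were FPKM, in which fragments are divided by the length of the gene and by the size of the library, a scale on which genes can be compared within a library. A difference is given as the log2 change, where 1 was added to both FPKM values and the shKIAA1429 value was divided by that of shNC, which makes differences of genes at low FPKM look smaller. A gene was kept where its FPKM averaged 1 or more over both libraries, which left 10702 genes in all and 37 of the 40 members. The median log2 change of the kept genes was 0.06. The listed values summed to 283046 FPKM with shNC and 249409 with shKIAA1429, of which the 13 mitochondrial genes made up 42.2% and 34.6%. When both libraries were rescaled to sum to 1000000, the median of all genes moved up by 0.18, so small differences are read against that median. The targeted gene, listed as VIRMA, was at 3.92 FPKM with shNC and 3.22 with shKIAA1429, a log2 change of -0.22. This was 82.1% of the control level, 18.9% of the kept genes had a lower log2 change, and the value therefore does not show the loss that the label of a knockout names. The libraries are called by their labels throughout, and how far KIAA1429 was lowered in the cells was not measured by these libraries beyond that value. By RT-qPCR and western blot, the study reported lower KIAA1429 mRNA and protein in its stable ACHN knockdown cells. All 10 renal epithelial markers fixed for the check of the cell type were listed, and they summed to 672 FPKM with shNC and 616 with shKIAA1429. The fibroblast list had 2 of 6 markers listed with sums of 1.75 and 2.60 FPKM, the leukocyte list had 2 of 5 with sums of 7.80 and 2.21, and the endothelial list had 0 of 5. The part of these markers in the results was not tested.

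Promoter sequences of 7 members are shown because HIFs bind the core letters ACGTG and also GCGTG, and because these members lie at different places in the results. They are PFKFB3, LOX, ERO1A, DDIT4 and ANGPTL4, the 5 members higher by over 0.5 with shKIAA1429 for which RefSeq gave a window, the lowest member (BNIP3), and LDHA, a classic HIF target whose difference was small. They were picked after the values were seen. Each window of 300 bases runs from 250 bases before to 50 bases after the outermost transcript start of the gene in RefSeq (GRCh38.p14), written in the direction of transcription. Capitals mark the core letters on either strand. LDHA (chr11:18394313-18394612, plus strand) had 6 matches and BNIP3 (chr10:131981874-131982173, minus strand) had 6. LOX (chr5:122078210-122078509, minus strand) and DDIT4 (chr10:72273674-72273973, plus strand) had 4 each. ERO1A (chr14:52695509-52695808, minus strand) had 3 and PFKFB3 (chr10:6144671-6144970, plus strand) and ANGPTL4 (chr19:8363905-8364204, plus strand) had 1 each.
PFKFB3: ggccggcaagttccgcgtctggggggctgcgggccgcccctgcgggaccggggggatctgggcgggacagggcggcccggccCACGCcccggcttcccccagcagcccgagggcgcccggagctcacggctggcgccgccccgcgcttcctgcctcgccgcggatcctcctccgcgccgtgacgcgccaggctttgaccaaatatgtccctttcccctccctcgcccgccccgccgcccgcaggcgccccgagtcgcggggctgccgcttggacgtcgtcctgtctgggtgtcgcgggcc
LOX: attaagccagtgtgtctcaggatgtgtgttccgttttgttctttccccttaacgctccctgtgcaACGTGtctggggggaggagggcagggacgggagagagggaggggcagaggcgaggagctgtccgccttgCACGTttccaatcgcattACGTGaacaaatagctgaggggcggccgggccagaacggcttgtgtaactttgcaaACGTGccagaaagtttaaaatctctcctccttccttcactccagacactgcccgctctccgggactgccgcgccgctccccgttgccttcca
ERO1A: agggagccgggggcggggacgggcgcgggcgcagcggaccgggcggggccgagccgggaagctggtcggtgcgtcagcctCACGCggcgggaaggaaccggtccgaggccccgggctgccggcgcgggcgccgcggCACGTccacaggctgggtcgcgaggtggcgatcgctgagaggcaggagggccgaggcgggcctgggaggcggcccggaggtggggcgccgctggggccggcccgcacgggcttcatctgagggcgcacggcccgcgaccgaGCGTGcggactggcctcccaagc
DDIT4: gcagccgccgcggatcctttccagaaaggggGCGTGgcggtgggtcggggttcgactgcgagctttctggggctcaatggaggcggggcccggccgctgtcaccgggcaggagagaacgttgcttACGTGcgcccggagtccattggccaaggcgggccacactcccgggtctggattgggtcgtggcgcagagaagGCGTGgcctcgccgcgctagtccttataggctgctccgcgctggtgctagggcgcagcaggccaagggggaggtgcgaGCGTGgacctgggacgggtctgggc
ANGPTL4: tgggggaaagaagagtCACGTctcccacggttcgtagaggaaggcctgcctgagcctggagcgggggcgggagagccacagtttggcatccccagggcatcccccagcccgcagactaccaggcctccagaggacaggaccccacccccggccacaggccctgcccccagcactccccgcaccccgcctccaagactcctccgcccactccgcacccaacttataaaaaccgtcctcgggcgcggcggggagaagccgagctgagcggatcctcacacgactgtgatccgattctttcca
BNIP3: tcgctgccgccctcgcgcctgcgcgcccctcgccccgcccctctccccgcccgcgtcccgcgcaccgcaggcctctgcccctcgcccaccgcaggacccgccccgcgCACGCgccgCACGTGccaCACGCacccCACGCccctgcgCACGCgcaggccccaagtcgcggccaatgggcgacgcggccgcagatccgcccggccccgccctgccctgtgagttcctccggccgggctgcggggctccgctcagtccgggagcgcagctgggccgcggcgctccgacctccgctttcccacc
LDHA: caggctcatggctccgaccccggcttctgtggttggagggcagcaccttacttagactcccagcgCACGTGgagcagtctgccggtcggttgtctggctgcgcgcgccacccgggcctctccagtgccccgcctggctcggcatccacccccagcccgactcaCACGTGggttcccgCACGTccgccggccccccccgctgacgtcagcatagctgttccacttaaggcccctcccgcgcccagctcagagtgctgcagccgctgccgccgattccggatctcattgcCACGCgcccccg

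The core letters were common in the promoters of the members. Many members were chosen as known HIF targets, so this describes the list and not the libraries. RefSeq windows were matched by symbol for 34 of the 40 members, and 28 of these (82.4%) held ACGTG or GCGTG on either strand. The same held for 64.7% of the windows of 8457 kept genes and for 48.4% of the windows of all 27305 genes in the table. For the HIF targets the count was 14 of 15, and for the glycolytic enzymes it was 12 of 16. The narrower word ACGTG stood in 11 of 15 HIF target windows, in 8 of 16 enzyme windows and in 27.7% of the windows of kept genes. CACGTG, the palindrome bound by MYC and its partner MAX, holds ACGTG on both strands and therefore counts as 2 matches. The 5 members higher by over 0.5 all had a match, with a median of 3 matches, against 21 of 26 (80.8%) and a median of 1 for the other kept members. ACGTG stood in 4 of the 5 and in 14 of the 26. These 5 were set apart by the log2 changes themselves, and LOXL2 and HILPDA, also higher, had no window. The lists do not separate HIF targets from all else, since LDHA, listed as an enzyme, is a classic HIF target. By list, all of the 5 but PFKFB3 stand among the HIF targets, whereas the other 26 include all 16 enzymes. The contrast is therefore mixed with that between the lists, and its link to the log2 changes was not tested. Of the 15 windows of listed HIF targets, only that of P4HA2 held no match. CACGTG was found in 5 of the 34 windows (14.7%), against 10.8% of the windows of kept genes, and LDHA, BNIP3, GAPDH, AK4 and ANKRD37 were the members that held it. A match in these windows is a description of the letters and does not show that a factor binds there.

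The fold-change limit of the study's methods, 1.5 on the log2 scale, was used there with DESeq2 and a limit on the p-value. Here it was set against the log2 change of (FPKM + 1), without a test. On that measure 0 of the 37 kept members passed it in either direction. The added 1 makes differences at low FPKM smaller, and PFKFB3 passed the limit with a pseudocount of 0.1 (1.64). Among all kept genes 0.383% were higher and 0.252% were lower by more than 1.5. At a limit of 1, 2 members (PFKFB3 and LOX) were higher and 0 were lower, against 1.61% and 0.897% of all kept genes. At a limit of 0.5, 7 members (18.9%) were higher, against 9.9% of all kept genes, and 1 member, BNIP3, was lower, against 6.12%. These 7 were PFKFB3, LOX, LOXL2, ERO1A, HILPDA, DDIT4 and ANGPTL4, and 6 of them were on the HIF target list. ANGPTL4 lay below 0.5 after centring on the median of all genes (0.47) or within bins of mean FPKM (0.46), LOX lay below 1 without the trend with GC content and length (0.88), and BNIP3 lay within 0.5 after rescaling to a sum of 1000000 (-0.49). After rescaling to a sum of 1000000, where the median of all genes was 0.24, further members passed 0.5. These were HK2 (0.70), AK4 (0.58), BNIP3L (0.56), PGK1 (0.54), NDRG1 (0.53) and KDM3A (0.52). HILPDA passed 1 with a pseudocount of 0.1 (1.10) and after rescaling to a sum of 1000000 (1.14) or without mitochondrial genes (1.06). It was below 1 FPKM in the shNC library and was kept through its higher value with shKIAA1429.

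**Figure D1:**
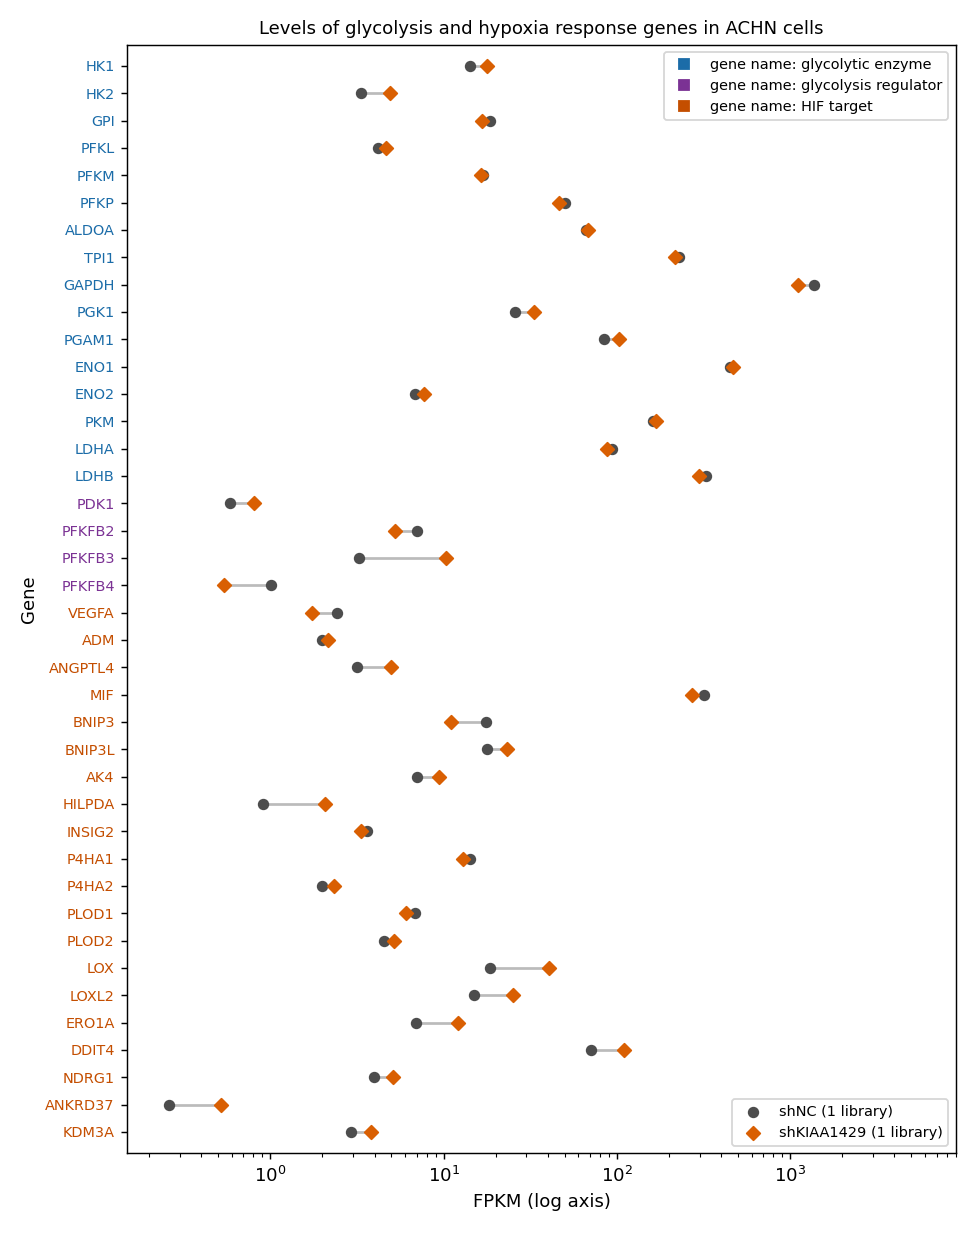
FPKM of the 40 members in the shNC library (grey circles) and the shKIAA1429 library (orange diamonds), on a log axis, with 1 library per group and gene names coloured by role. The enzymes run from HK2 at 3.33 FPKM to GAPDH at 1378 FPKM with shNC, and the widest gap between the libraries is that of PFKFB3.

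The glycolytic enzymes as a group differed little between the libraries. All 16 that were listed lay within 0.5 of no difference on the log2 scale, their log2 changes ran from -0.31 (GAPDH) to 0.45 (HK2), and their median was 0.05 beside 0.06 for all kept genes. HK2 lay beyond 0.5 with a pseudocount of 0.1 (0.55), after rescaling to a sum of 1000000 (0.70) or without mitochondrial genes (0.55) and without the trend with GC content and length (0.54), and PGK1 after rescaling to a sum of 1000000 (0.54). Of the 16 enzymes, 6 lay above the median of all genes and 10 below it. Summed over the enzymes, the level was 2932 FPKM in the control and 2669 with shKIAA1429. This was 1.79% and 1.64% of the FPKM outside the mitochondrial genes. Without GAPDH the sums were 1554 and 1558 FPKM.

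Glucose enters the pathway through the hexokinases. HK1, the form found in most tissues, was at 14.2 FPKM with shNC and 17.8 FPKM with shKIAA1429, a log2 change of 0.31. HK2, the form induced in many tumors and by HIF, was at 3.33 FPKM and 4.94 FPKM, a log2 change of 0.45. Both hexokinases were higher with shKIAA1429, and HK2 remained the smaller part of their sum, 19.0% with shNC and 21.7% with shKIAA1429. HKDC1, a further hexokinase that is no member and was singled out after its values were seen, stood above both with 83.8 FPKM and 98.5 FPKM. GPI, which turns glucose phosphate into fructose phosphate, was at 18.6 FPKM and 16.6 FPKM.

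Phosphofructokinase commits the sugar to glycolysis. PFKP, the platelet form, was the most abundant of the 3 subunits at 49.9 FPKM with shNC and 46.5 FPKM with shKIAA1429. PFKM, the muscle form, was at 16.9 and 16.5 FPKM, and PFKL, the liver form, was at 4.20 and 4.63 FPKM. The mix of subunits was nearly the same in both libraries, with PFKP at 70.2% and 68.8% of the sum. ALDOA, the aldolase that cleaves fructose bisphosphate, was at 66.6 and 68.4 FPKM. TPI1, which interconverts the resulting triose phosphates, was at 229.9 and 217 FPKM.

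The enzymes from GAPDH to lactate dehydrogenase summed to 2528 FPKM with shNC, above the 404 FPKM of those before them, and differed in both directions. GAPDH, which oxidises glyceraldehyde phosphate and was the internal control of the study's RT-qPCR, was at 1378 FPKM with shNC and 1111 FPKM with shKIAA1429, or 80.7% of the control level. Its log2 change of -0.31 was the lowest of the enzymes and became -0.13 after rescaling to a sum of 1000000. PGK1, which forms the first ATP of the pathway, was at 26.0 and 33.4 FPKM. PGAM1, the mutase that follows it, was at 84.0 and 103 FPKM. Both were higher with shKIAA1429, with log2 changes of 0.35 and 0.30, whereas their neighbour GAPDH was lower. ENO1, the main enolase, was at 449 and 466 FPKM, and ENO2, the neuronal form, at 6.83 and 7.74 FPKM. PKM, the pyruvate kinase gene, was at 163 and 169 FPKM. ENO2 shares its strand and part of its locus with LRRC23, and their summed FPKM differed by 0.03 (log2) against 0.16 for ENO2 alone. GAPDH, PGK1, PGAM1, ENO1, LDHA and LDHB have processed pseudogenes, and how reads matching several copies were assigned is not given in the sources used here.

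Lactate dehydrogenase, at the end of the pathway, was mostly of the heart type. LDHB was at 329 FPKM with shNC and 299 FPKM with shKIAA1429, and LDHA, the muscle type and a classic target of HIF and MYC, was at 93.2 and 87.5 FPKM. LDHA made up 22.1% of their sum with shNC and 22.6% with shKIAA1429. Its promoter window held 6 matches to the core letters, the same number as that of BNIP3, and its log2 change was -0.09.

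**Figure D2:**
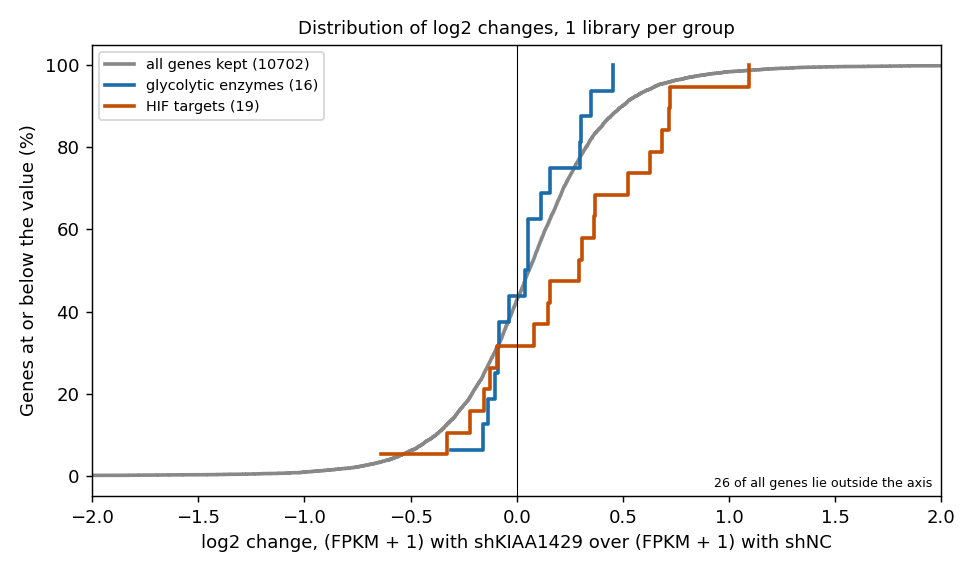
Cumulative distribution of the log2 change, (FPKM + 1) with shKIAA1429 over (FPKM + 1) with shNC, for all 10702 kept genes (grey), the 16 glycolytic enzymes (blue) and the 19 kept HIF targets (orange), with the share of genes at or below each value on the vertical axis. The enzymes cross the middle of the axis at 0.05, close to the 0.06 of all genes, and the HIF targets at 0.29.

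The regulators of glycolysis held the largest difference among the members. PFKFB3 (ENSG00000170525.19_4, chromosome 10 of GRCh37, 6186897 to 6296607, plus strand) makes the bisphosphate that activates phosphofructokinase. It was at 3.26 FPKM with shNC and 10.4 FPKM with shKIAA1429, a ratio of 3.17 and a log2 change of 1.41. Counted from the highest log2 change, it held rank 51 among the 10702 kept genes. PFKFB2, a paralog regulated by phosphorylation, was lower with shKIAA1429, at 7.05 FPKM against 5.23 FPKM. PFKFB4, a paralog first known from testis, was at 1.02 and 0.539 FPKM. The mix of the 3 paralogs therefore differed between the libraries. PFKFB3 made up 28.8% of their sum with shNC and 64.3% with shKIAA1429, and PFKFB2 made up 62.2% and 32.4%. Shares within a library do not depend on how the library was scaled. PDK1, a kinase that inactivates pyruvate dehydrogenase, was at 0.583 and 0.804 FPKM, and with PFKFB4 it was below the filter.

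Whether PFKFB3 passed the limit of 1.5 depended on the weight of the added 1 as well as on the scaling. The sums outside the mitochondrial genes were close, 163587 FPKM with shNC and 163171 with shKIAA1429. Rescaling without mitochondrial genes therefore mostly made all values larger, so that the added 1 weighed less. The log2 change of PFKFB3 was 1.64 with a pseudocount of 0.1, 1.76 after rescaling to a sum of 1000000 and 1.62 after rescaling without mitochondrial genes. In those settings 112, 133 and 107 of all kept genes were higher by more than 1.5, instead of 41. It lay below the limit, at 1.36, after centring on the median of all genes, at 1.33 after centring within bins of mean FPKM and at 1.41 without the trend with GC content and length.

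**Figure D3:**
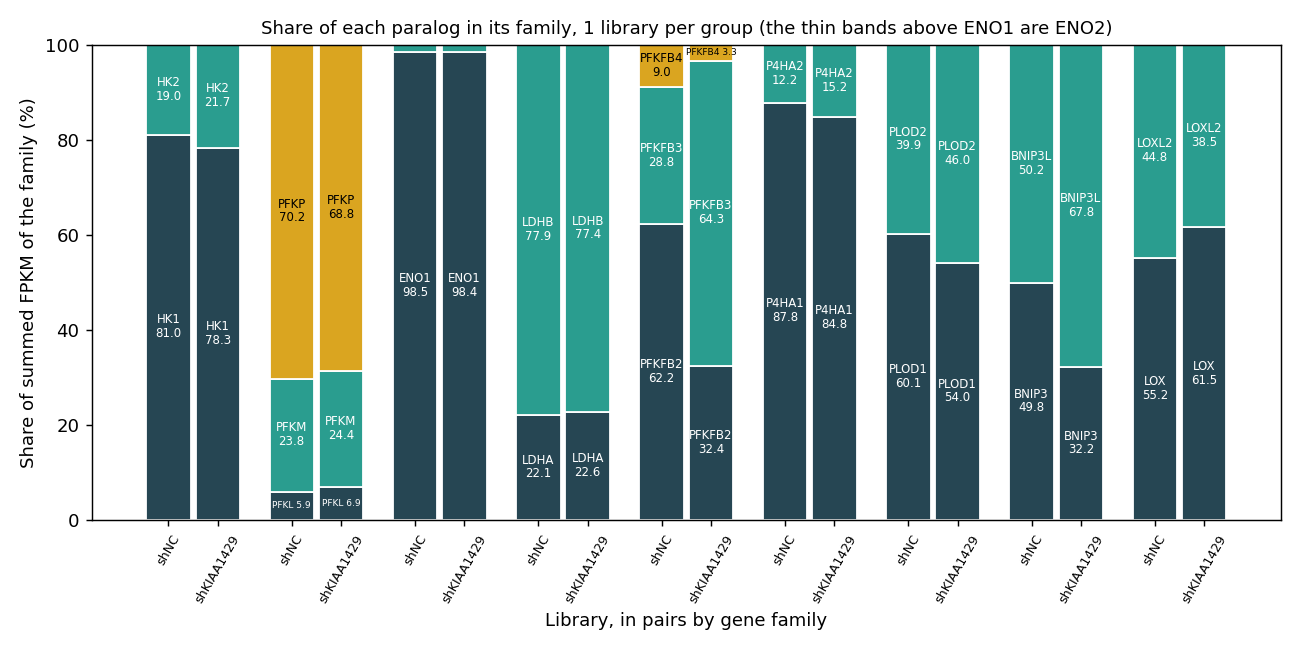
Share of each paralog in the summed FPKM of its family (vertical axis, %), in pairs of bars for the shNC and shKIAA1429 libraries, with 1 library per group. The pairs differ most for PFKFB2 and PFKFB3, where PFKFB3 goes from 28.8% to 64.3%, and for BNIP3 and BNIP3L, whereas the phosphofructokinase, enolase and lactate dehydrogenase pairs are nearly level.

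Among the members listed as HIF targets, more were higher than lower with shKIAA1429. Of the 19 kept, 13 had a log2 change above the median of all genes and 6 below it, the median was 0.29, and the values ran from -0.64 (BNIP3) to 1.10 (LOX). By more than 0.5, 6 were higher (31.6%, against 9.9% of all kept genes) and 1 was lower. Summed over all listed targets, the level was 519 FPKM in the control and 554 with shKIAA1429, of which MIF alone made up 61.4% and 49.3%. HIF1A, the gene of the oxygen-regulated subunit HIF-1alpha, stood at 56.8 FPKM with shNC and 119 FPKM with shKIAA1429, and EPAS1, the gene of HIF-2alpha, at 81.3 and 83.5 FPKM. VHL was at 5.19 and 5.57 FPKM. These 3 genes are no members, and any part of theirs in the values of the HIF targets was not tested.

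The enzymes that modify and cross-link collagen held the largest of these differences. LOX (chromosome 5 of GRCh37, 121398890 to 121414055, minus strand), the lysyl oxidase that cross-links collagen and elastin, was at 18.4 FPKM with shNC and 40.5 FPKM with shKIAA1429. That is a ratio of 2.20 and a log2 change of 1.10, which was 0.88 with the trend with GC content and transcript length removed. Its paralog LOXL2 was at 14.9 and 25.3 FPKM, a log2 change of 0.72. The 2 oxidases were both higher, with a summed level of 33.4 and 65.8 FPKM. LOXL2 overlaps ENTPD4, a gene of the same strand, and their summed FPKM differed by 0.65 (log2). On the strand opposite to LOX lies SRFBP1, at 4.22 and 6.53 FPKM. The library kit marks strand, but whether the counting used strand is not given in the sources used here. ERO1A (chromosome 14 of GRCh37, 53106634 to 53162618, minus strand), which reoxidises protein disulfide isomerase in the endoplasmic reticulum, was at 6.97 and 12.1 FPKM, a log2 change of 0.72.

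The collagen hydroxylases, listed in the same group, did not share this size of difference. P4HA1, the main alpha subunit of collagen prolyl hydroxylase, was at 14.2 FPKM with shNC and 13.0 FPKM with shKIAA1429. P4HA2, its paralog, was at 1.98 and 2.32 FPKM. Their log2 changes were -0.12 and 0.16. PLOD1, a lysyl hydroxylase, was at 6.86 and 6.06 FPKM, and PLOD2, the lysyl hydroxylase of the collagen telopeptides, at 4.56 and 5.16 FPKM. PLOD2 made up 39.9% of their sum with shNC and 46.0% with shKIAA1429. Over the 7 genes of this group the median log2 change was 0.16.

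BNIP3 and BNIP3L, paralogs that recruit the autophagy machinery to mitochondria, differed in opposite directions. BNIP3 (chromosome 10 of GRCh37, 133779959 to 133795517, minus strand) was at 17.7 FPKM with shNC and 11.0 FPKM with shKIAA1429, or 62.3% of the control level, and its log2 change of -0.64 was the lowest of all members. BNIP3L was at 17.8 and 23.2 FPKM, a log2 change of 0.36. The paralogs were thus level in the control library, where BNIP3 made up 49.8% of their sum, and unequal in the other, where it made up 32.2%. Their summed level was 35.5 and 34.2 FPKM. BNIP3 stayed lower under each alternative run, with log2 changes between -0.71 and -0.49.

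Genes of energy and lipid handling were mixed. HILPDA, a lipid droplet protein that inhibits triglyceride breakdown, was at 0.912 FPKM with shNC and 2.07 FPKM with shKIAA1429, a log2 change of 0.68 that was 1.10 with a pseudocount of 0.1. AK4, a mitochondrial adenylate kinase, was at 7.05 and 9.40 FPKM. INSIG2, which holds the sterol sensor SCAP in the endoplasmic reticulum, was at 3.63 and 3.34 FPKM.

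The secreted factors differed in both directions. VEGFA, the vascular growth factor, was at 2.42 FPKM with shNC and 1.73 FPKM with shKIAA1429, a log2 change of -0.33. ANGPTL4, an inhibitor of lipoprotein lipase, was at 3.17 and 5.00 FPKM, a log2 change of 0.52. ADM, the vasodilator adrenomedullin, was at 1.98 and 2.16 FPKM. MIF, an inflammatory cytokine and the most abundant gene of the HIF target list, was at 318 and 273 FPKM. It overlaps AP000350.4, a gene of the same strand, and their summed FPKM had a log2 change of -0.22, equal to that of MIF alone. The median log2 change of these 4 genes was -0.07.

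The 3 kept stress and chromatin genes were all higher with shKIAA1429. DDIT4 (chromosome 10 of GRCh37, 74033678 to 74035794, plus strand), the inhibitor of mTORC1 also known as REDD1, was at 70.6 FPKM with shNC and 109.5 FPKM with shKIAA1429, a log2 change of 0.63. NDRG1, a stress-responsive gene of differentiation, was at 3.95 and 5.12 FPKM. KDM3A, a histone demethylase, was at 2.92 and 3.81 FPKM. ANKRD37, an ankyrin repeat protein, was at 0.261 and 0.519 FPKM and lay below the filter. No listed gene had both values below 0.5 FPKM, and ANKRD37 reached that level only with shKIAA1429. Among the 3 kept genes of this group the log2 changes ran from 0.29 to 0.63.

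Scaling changed the sign of some small differences only. After rescaling to a sum of 1000000, 9 of the 37 kept members changed sign (GPI, PFKM, PFKP, TPI1, LDHA, LDHB, INSIG2, P4HA1 and PLOD1), and each of them lay within 0.25 of no difference before. The position relative to the median of all genes moved less. The HIF targets kept a count of 13 of 19 above that median after either rescaling and with a pseudocount of 0.1, and 12 of 19 once the trend with GC content and length was taken out. For the enzymes 6 of 16 lay above it after either rescaling, and 9 of 16 with the trend removed or after centring within bins of mean FPKM. Among genes averaging 5 FPKM or more, 6 of 10 HIF targets and 4 of 14 enzymes lay above the median.

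**Figure D4:**
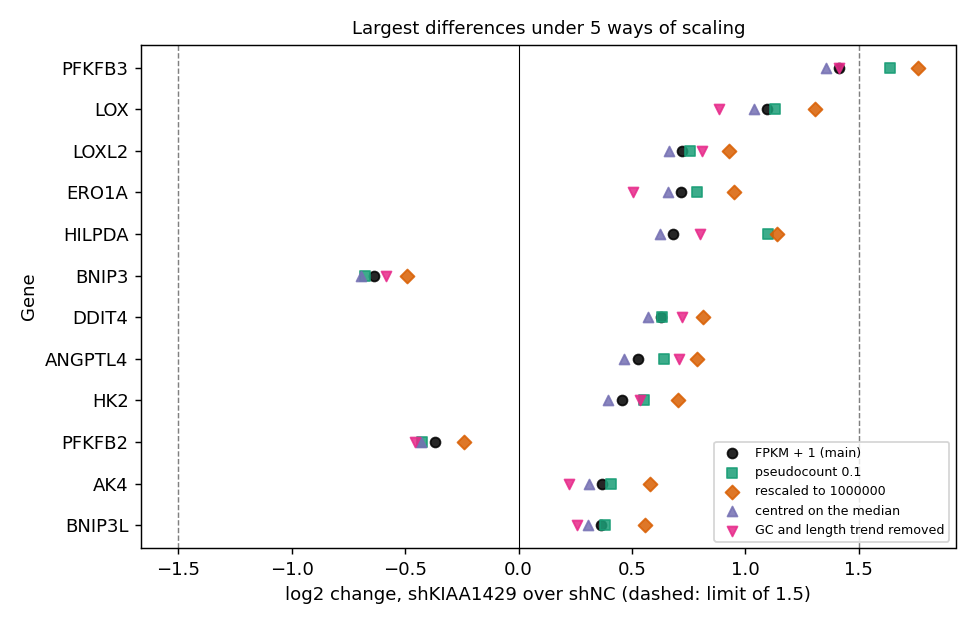
Log2 change of shKIAA1429 over shNC for the 12 kept members with the largest differences, under 5 settings of pseudocount, scaling, centring or trend removal, with dashed lines at the limit of 1.5. PFKFB3 lies at 1.41 as reported and beyond the limit with a pseudocount of 0.1 and after rescaling, and the other 11 stay within it on the same side of zero.

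The other genes of glycolysis and the hypoxia response were followed with a list of 60 names, of which 47 were in the files and 45 were kept. Their median log2 change was 0.11, with 8 higher by more than 0.5 (17.8%, against 9.9% of all kept genes) and 1 lower. By more than 1.5, 1 was higher and 0 were lower. The largest differences named here were toward higher values with shKIAA1429. TFRC, the transferrin receptor, was at 3.11 FPKM with shNC and 11.4 FPKM with shKIAA1429, a log2 change of 1.59. STC2, a secreted glycoprotein, was at 4.20 and 11.3 FPKM, a log2 change of 1.24. TIGAR, which breaks down the bisphosphate that PFKFB3 makes, was at 14.4 and 26.7 FPKM, a log2 change of 0.85. PDP1, the phosphatase that reactivates pyruvate dehydrogenase, was at 2.32 and 4.72 FPKM. The glucose transporter gene SLC2A1 and the lactate transporter gene SLC16A1 were named after their values were seen. SLC2A1 was at 13.2 and 15.1 FPKM, and SLC16A1 was level at 17.7 and 17.9 FPKM.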

How the data were processed

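The RNA-seq libraries of ACHN cells were 2, named shKIAA1429 and shNC after the labels. Per the labels, poly(A) RNA was sequenced from both ends in libraries that mark strand. The authors deposited FPKM per gene for protein-coding genes. The submitters' processing notes name cutadapt 1.9, HISAT2 2.0.4, StringTie 1.3.4d, DESeq2 and edgeR without their roles. The genome build is not given in the sources used here, and the positions are those of GRCh37. Low FPKM values showed no steps of whole reads, so the depth is unknown, and no counting interval is given.

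Log2 changes of (FPKM + 1) were computed for genes averaging 1 FPKM or more, and 7 repeated symbols were represented by their row of highest mean. With 1 library per group no test was run. A list was described by its counts and its median beside those of all kept genes. The members, the other pathway genes and the marker lists were chosen with earlier results of these data known. All 40 listed members are named, with the 5 largest differences of the other pathway genes, of which 1 is not reported here. The code was tested on simulated data. The alternatives changed the pseudocount to 0.1, centred the values on the median or within 20 bins of mean FPKM, rescaled the libraries in 2 ways, used other filters and limits, summed repeated rows, left out genes overlapping on 1 strand and, added after seeing the data, removed the trend with GC content and length (GENCODE 29, 99.5% of genes matched). Promoter windows came from RefSeq (GRCh38.p14). Python 3.11.15, NumPy 2.4.6, pandas 2.3.3 and matplotlib 3.10.9 were used.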

Additional observations from a re-analysis of the deposited data

How the results depend on the processing

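Without a second library of either group, the spread between cultures is unknown, and the values describe these libraries only. No paired analysis was possible because each group held 1 library. The count of members higher by more than 1.5 was 0, and it was 1 (PFKFB3) with a pseudocount of 0.1 and after either rescaling, 2 at a limit of 1 and 7 at a limit of 0.5. For lower members the count was 0, and it was 1 at a limit of 0.5. Over all genes, 41 were higher and 27 lower. With a pseudocount of 0.1 there were 112 and 60, after rescaling to a sum of 1000000 there were 133 higher, and after rescaling without mitochondrial genes 107 and 57. There were 172 and 96 at a limit of 1, and 1060 and 655 at a limit of 0.5. Among genes averaging 5 FPKM or more 24 were higher, and 26 were higher without overlapping genes, since fewer genes were counted. The median of the enzymes, 0.05, was -0.013 after centring, -0.00015 among genes averaging 5 FPKM or more and 0.23 after rescaling to a sum of 1000000, so it has no firm sign. That rescaling moved the median of the HIF targets from 0.29 to 0.52, of the 2 kept regulators from 0.52 to 0.76 and of the other pathway genes from 0.11 to 0.31. The 2 regulators, PFKFB3 at 1.41 and PFKFB2 at -0.37, differed in opposite directions, so their median describes neither. Without a filter the median of the regulators was -0.090, since PDK1 and PFKFB4 entered, and among genes averaging 5 FPKM or more the median of the other pathway genes was 0.21, since fewer genes were counted. The trend with GC content and length, removed as a step added after seeing the data, moved LOX from 1.10 to 0.88 and ERO1A from 0.72 to 0.51. Shares within families were the same with rows of a symbol summed, and those of ENO2 and LOXL2 could not be given without overlapping genes.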

Other observations

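The entry of pyruvate into the mitochondrion was looked at after its values were seen, with the genes of the other pathway list. MPC2, a subunit of the mitochondrial pyruvate carrier, was at 88.0 FPKM with shNC and 69.6 FPKM with shKIAA1429, and MPC1, its partner, was at 2.86 and 2.95 FPKM. Of the pyruvate dehydrogenase complex, PDHA1 was at 11.9 and 10.2 FPKM and PDHB at 5.02 and 5.35 FPKM. DLAT, DLD and PDHX, which complete the complex, were at 8.15, 17.1 and 3.49 FPKM with shNC and at 9.35, 21.2 and 4.89 FPKM with shKIAA1429. PDK2, a kinase that inactivates the complex, was at 1.97 and 1.52 FPKM. The kept genes among these lay within 0.5 on the log2 scale. PDK4, a further kinase, was below the filter at 0.927 and 0.309 FPKM. Of the phosphatases, PDP1 had a log2 change of 0.78, and PDP2 was level at 5.08 and 5.05 FPKM.

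Genes that restrain or follow HIF activity, chosen after their values were seen, also differed in both directions. CITED2, which competes with HIF for its coactivator, was the 1 kept gene of that list lower by more than 0.5, at 85.6 FPKM with shNC and 54.4 FPKM with shKIAA1429. STC1 was at 4.39 and 7.84 FPKM, MAFF at 2.72 and 5.19 FPKM, and WSB1 at 5.49 and 8.53 FPKM. BHLHE40, a transcription factor induced by hypoxia, was level at 32.2 and 32.3 FPKM.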
